A study of Mus musculus with 9 samples.

Results

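The CDK inhibitors of the INK4 and CIP/KIP families were compared between mouse T cell lymphomas labelled as MYCN-induced and control CD4 T cells. The 7 genes were taken by symbol from the deposited count table of 46078 genes: the INK4 genes Cdkn2a, Cdkn2b, Cdkn2c and Cdkn2d, and the CIP/KIP genes Cdkn1a, Cdkn1b and Cdkn1c. The series profiled RNA 3′ ends in 6 samples of MYCN-induced lymphoma cells from the thymus, numbered 34, 53, 56, 70, 72 and 86, and in 3 samples of untransformed CD4+ T cells from the spleen, numbered 1, 2 and 3. All 9 samples are from C57BL/6J mice. The study concerns MYCN, a MYC family transcription factor, and EZH2, the methyltransferase of a Polycomb repressive complex. The promoter or cell type that drives MYCN, the age of the animals, any pooling and any treatment are not given in the sources used here. Nothing says that the samples came from separate animals, so p-values measure the spread between these samples.

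Progress from G1 into S phase is driven by cyclin-dependent kinases (CDKs), which phosphorylate RB and release E2F factors. INK4 proteins bind CDK4 and CDK6 and keep D cyclins from activating them, while CIP/KIP proteins bind cyclin-CDK complexes and inhibit CDK2 above all. Cdkn2a also encodes ARF, which is read in another frame, binds MDM2 and thereby stabilises p53, and the gene is held silent by Polycomb complexes in most normal cells. In T cells, p27 (Cdkn1b) and p18 (Cdkn2c) restrain the division of resting and activated cells.

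On GRCm38, as annotated by GENCODE M21, Cdkn2a (ENSMUSG00000044303) lies on the minus strand at chr4:89274471-89294653 and Cdkn2b (ENSMUSG00000073802) on the same strand at chr4:89306299-89311039. Cdkn2c (ENSMUSG00000028551) is at chr4:109660876-109667189, Cdkn2d (ENSMUSG00000096472) at chr9:21288410-21291407, Cdkn1a (ENSMUSG00000023067) at chr17:29090976-29100727, Cdkn1b (ENSMUSG00000003031) at chr6:134920401-134925513 and Cdkn1c (ENSMUSG00000037664) at chr7:143458339-143461050. Cdkn2a has 2 annotated coding transcripts, one with its first exon at chr4:89294334-89294653, which opens the ARF reading frame, and one with its first exon at chr4:89281986-89282192, which opens that of p16INK4a. They share the second exon of 341 bases and 234 bases of the third exon, so a 3′ count of Cdkn2a cannot tell p16INK4a from ARF. An antisense gene, Gm44732, overlaps 625 exon bases of Cdkn1c, and AC167363.2 on the other strand overlaps 273 exon bases of Cdkn1a. Without a stated strand setting, reads of such pairs cannot be told apart.

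The 250 bases before a start site are shown for the genes whose counts separated the groups and, for contrast, for the neighbour Cdkn2b and for Cdkn1a. Sequences and start sites are RefSeq's on GRCm38.p6, where 6 of the 7 genes had an entry; Cdkn1c did not. Both Cdkn2a starts are given, since its count sums their transcripts. Capitals mark GC boxes (GGGCGG, either strand) and matches to the p53 half-site consensus, the short motif that p53 binds in pairs.
Cdkn2a, ARF start (chr4:89294620-89294869, minus strand): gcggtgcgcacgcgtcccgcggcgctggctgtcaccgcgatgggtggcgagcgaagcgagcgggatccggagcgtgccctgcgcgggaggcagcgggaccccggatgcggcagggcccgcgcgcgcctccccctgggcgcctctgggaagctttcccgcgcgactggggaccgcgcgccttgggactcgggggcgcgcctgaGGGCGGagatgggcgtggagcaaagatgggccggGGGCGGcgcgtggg
Cdkn2a, p16INK4a start (chr4:89282193-89282442, minus strand): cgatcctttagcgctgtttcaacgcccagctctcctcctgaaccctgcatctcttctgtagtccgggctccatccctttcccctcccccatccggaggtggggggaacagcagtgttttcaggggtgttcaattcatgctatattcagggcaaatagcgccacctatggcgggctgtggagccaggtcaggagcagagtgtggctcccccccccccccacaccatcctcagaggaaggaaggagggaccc
Cdkn2b (chr4:89311033-89311282, minus strand): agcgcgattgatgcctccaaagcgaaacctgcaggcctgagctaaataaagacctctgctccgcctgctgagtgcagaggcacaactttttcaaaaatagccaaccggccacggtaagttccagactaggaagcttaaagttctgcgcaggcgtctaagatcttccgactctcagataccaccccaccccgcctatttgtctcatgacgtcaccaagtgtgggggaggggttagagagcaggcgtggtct
Cdkn2c, upstream start (chr4:109666757-109667006, minus strand): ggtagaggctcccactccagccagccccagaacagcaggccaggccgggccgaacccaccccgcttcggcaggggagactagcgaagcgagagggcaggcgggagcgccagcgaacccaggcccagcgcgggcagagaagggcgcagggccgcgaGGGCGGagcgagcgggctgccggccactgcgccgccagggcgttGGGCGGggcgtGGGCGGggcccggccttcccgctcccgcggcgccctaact
Cdkn1a, upstream start (chr17:29090729-29090978, plus strand): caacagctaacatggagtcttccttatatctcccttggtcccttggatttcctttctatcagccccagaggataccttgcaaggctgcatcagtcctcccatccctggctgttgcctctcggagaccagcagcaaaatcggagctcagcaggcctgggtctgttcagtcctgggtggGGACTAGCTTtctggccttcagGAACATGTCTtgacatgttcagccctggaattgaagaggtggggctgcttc
Cdkn1b (chr6:134920151-134920400, plus strand): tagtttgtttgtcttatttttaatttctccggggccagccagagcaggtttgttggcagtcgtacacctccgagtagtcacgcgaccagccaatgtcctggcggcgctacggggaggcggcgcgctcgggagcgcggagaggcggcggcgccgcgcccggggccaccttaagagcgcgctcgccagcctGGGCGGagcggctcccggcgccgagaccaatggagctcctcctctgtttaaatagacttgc

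The window of the ARF start held 40 CpG dinucleotides and that of the p16INK4a start 7, beside 12 for Cdkn2b, 29 for the upstream start of Cdkn2c, 28 for Cdkn1b and 2 for the upstream start of Cdkn1a. The windows not printed held 16 (Cdkn2d), 6 (downstream start of Cdkn2c) and 19 (downstream start of Cdkn1a). The median over 32851 such windows was 6. GC boxes, found in 32.7% of all windows, numbered 2 at the ARF start, 3 at the upstream start of Cdkn2c, 3 at Cdkn2d, 2 at the downstream start of Cdkn1a and 1 at Cdkn1b. None lay at the p16INK4a start, Cdkn2b, the downstream Cdkn2c start or the upstream Cdkn1a start. The p53 half-site consensus matched 2 times at the upstream start of Cdkn1a, a known p53 target, and 1 time at Cdkn2d, and 7.13% of all windows held a match. The E-box CACGTG (6.02% of windows), the E2F motif TTTCGCGC or TTTGGCGC (0.654%) and the FOXO motif TGTTTAC (3.17%), each searched on both strands, were not found in any of the 9 windows of these genes. These are matches of letters only.

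Reads of mouse Mycn were nearly absent: lymphoma 53 had 1 count, lymphoma 70 had 3, CD4 3 had 6 and every other library had 0. The row therefore does not check the lymphoma label, and whether the table counts the transgene is not given in the sources used here. Counts in genes ranged from 11170704 to 15769679 in lymphoma and from 8099960 to 10808828 in CD4. RNA of T cell markers was present in both groups. Of 11 T cell markers, 0 rose in lymphoma and 2 (Cd2 and Cd4) fell, beside 24.7% higher and 21.9% lower over all genes. Their median log2 fold change was -0.45, and Cd2 fell by 1.15 (edgeR adjusted p 0.00874). Cd3e is a chain of the T cell receptor complex. It stood at 150 to 217 CPM (counts scaled to a common library size) in lymphoma and 138 to 192 CPM in CD4. The CD4 libraries also carried B cell RNA. All 20 listed B cell markers were lower in lymphoma by edgeR, with summed levels of 5225 to 6969 CPM in CD4 and 381 to 536 CPM in lymphoma. Cd79a, a chain of the B cell receptor complex, was at 8.16 to 10.1 CPM in CD4 and at most 0.433 CPM in lymphoma, with 0 in 1 library. Cd8a in CD4 was at 25.6 to 31.8 CPM. The defining gene Cd4 was at 199 to 263 CPM in CD4 and 6.04 to 71.9 CPM in lymphoma. Of 20 myeloid markers, 11 were lower in lymphoma and 0 higher, beside 21.9% lower and 24.7% higher over all tested genes. The part of these markers in the CDK inhibitor levels of CD4 was not tested. In such bulk samples, fewer cells of a type and less RNA per cell cannot be told apart.

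Of the 7 genes, 6 passed the filter on low counts and were tested, and Cdkn2b did not pass. By edgeR's quasi-likelihood test, 3 were higher in lymphoma (Cdkn2a, Cdkn2c and Cdkn1c) and 1 was lower (Cdkn1b) at an adjusted p under 0.05. Cdkn2d and Cdkn1a did not pass the threshold. Over all 15401 tested genes, 46.6% were called, 24.7% higher and 21.9% lower, so a call in itself does not set these genes apart. The groups did not overlap for the 4 called genes, beside 44.9% of all tested genes: 3 were higher in every lymphoma (22.6% of all tested genes) and 1 was lower in every lymphoma (22.3%). Cdkn2a and Cdkn1c passed the filter through the lymphoma libraries, since their CD4 counts were at most 15 and 9.

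**Figure D1:**
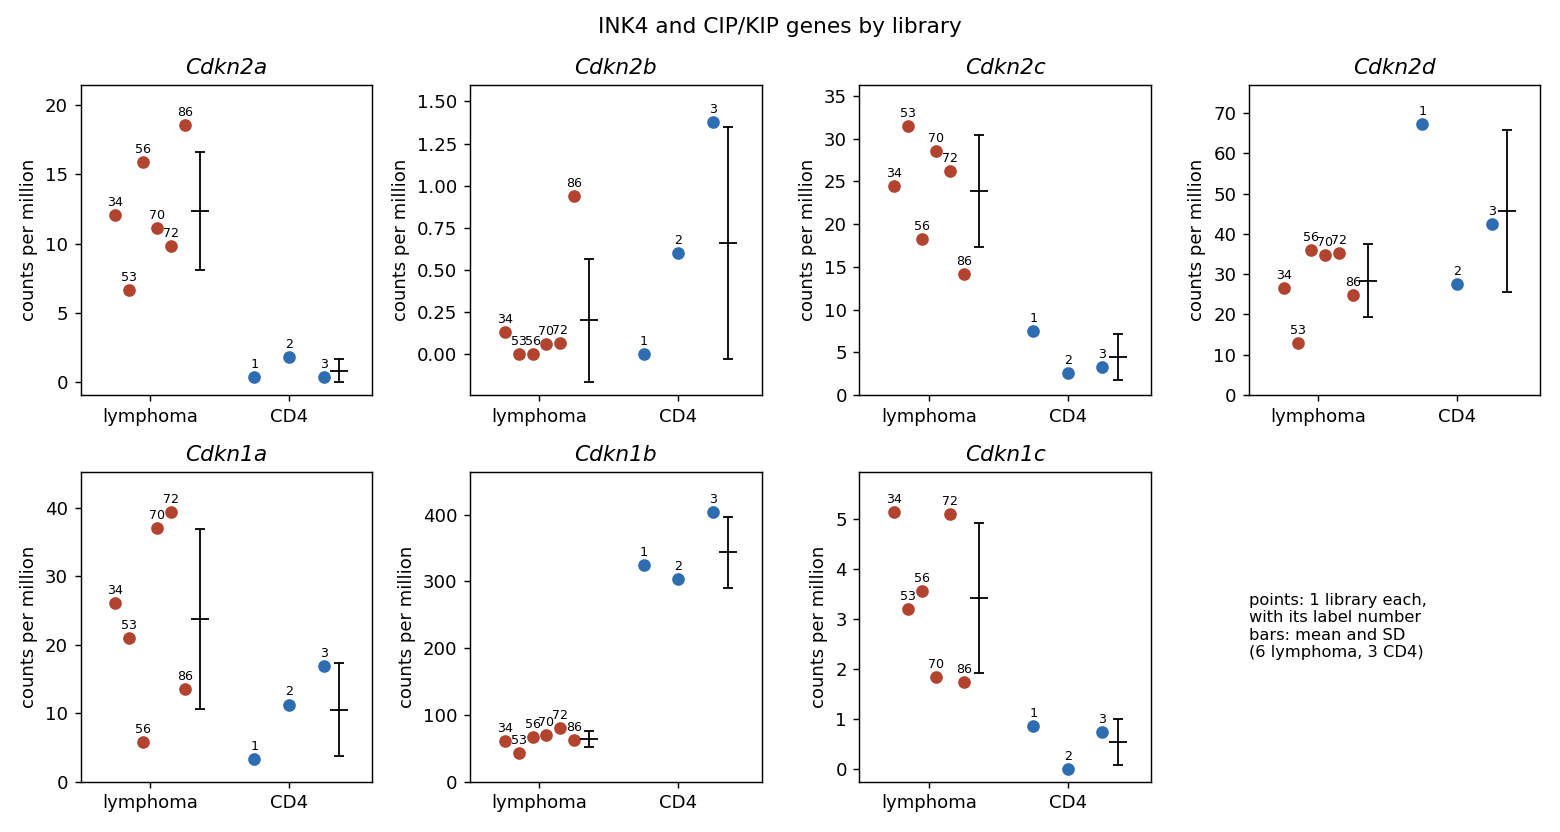
CPM of each gene in each library (points, with the label's number), with the mean and SD of the 6 lymphoma and 3 CD4 libraries. Cdkn2a, Cdkn2c and Cdkn1c lie higher in every lymphoma than in every CD4 library, Cdkn1b lies lower in every lymphoma, and the groups overlap for Cdkn2b, Cdkn2d and Cdkn1a.

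Among INK4 genes, Cdkn2a rose most. It stood at 12.1, 6.67, 15.9, 11.15, 9.82 and 18.55 CPM in lymphomas 34, 53, 56, 70, 72 and 86, and at 0.382, 1.80 and 0.367 CPM in CD4 1, 2 and 3. The lowest lymphoma, number 53, was still above the highest CD4 library, number 2, and lymphomas 56 and 86 were highest. The CD4 values rest on 4, 15 and 4 counts, against 73 to 257 counts per lymphoma. The lymphoma mean of 12.35 ± 4.27 CPM (SD, n = 6) was 14.9-fold above the CD4 mean of 0.850 ± 0.823 CPM (SD, n = 3) in the fit, or 3.89 on the log2 scale (edgeR: SE 0.608, adjusted p 0.000294), with a 95% interval of 5.92-fold to 37.3-fold. CD4 2 weighed on this size: without it the log2 fold change was 5.02 (edgeR adjusted p 0.000153). Lymphoma 53 stands apart from the other lymphomas in several measures, and without it the Cdkn2a value was 4.03.

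Cdkn2b, which encodes p15INK4b and lies upstream of Cdkn2a on the same strand, was at or near 0 in most lymphomas. Its counts per library were 0, 5 and 15 for CD4 1, 2 and 3 and 2, 0, 0, 1, 1 and 13 for the lymphomas in the order above. A count of 0 allows a true level of up to 3 counts, which 5 of the 6 lymphomas did not exceed, and lymphoma 86 at 0.939 CPM lay between CD4 2 at 0.600 CPM and CD4 3 at 1.38 CPM. Without a filter, the edgeR log2 fold change was -1.66 (SE 1.48, adjusted p 0.409). On the other side of Cdkn2a, Mtap, a purine salvage enzyme at chr4:89137122-89181081, averaged 119 ± 39.1 CPM in lymphoma (SD, n = 6) against 33.3 ± 1.76 CPM in CD4 (SD, n = 3). Its log2 fold change was 1.84 (SE 0.291, edgeR adjusted p 0.000322), with every lymphoma above every CD4 library. Dmrta1, a further neighbour, had 0 counts in every lymphoma and 0 to 1.74 CPM in CD4.

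Cdkn2c, which encodes p18INK4c, had 24.5, 31.5, 18.3, 28.6, 26.2 and 14.15 CPM in lymphomas 34, 53, 56, 70, 72 and 86, and 7.54, 2.52 and 3.30 CPM in CD4 1, 2 and 3. Lymphoma 86 was the lowest lymphoma and CD4 1 the highest CD4 library, and they did not meet. The log2 fold change was 2.41 (SE 0.408, edgeR adjusted p 0.000517), or 5.33-fold (95% interval 2.88 to 9.88). Without CD4 1 the log2 fold change was 3.04 (edgeR adjusted p 0.000268). CD4 1 also had the highest summed B cell markers, 6969 CPM, and 68.6 CPM of Foxp3, the regulatory T cell factor, against 26.2 and 27.4 CPM in CD4 2 and 3. Its summed proliferation genes were the highest of the CD4 libraries as well, at 870 CPM against 693 and 725 CPM. The part of these differences in its Cdkn2c level was not tested.

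Cdkn2d, which encodes p19INK4d, was the INK4 gene with the highest level in CD4. It stood at 26.6, 12.8, 35.9, 34.8, 35.3 and 24.8 CPM in the lymphomas in the same order, and at 67.3, 27.5 and 42.5 CPM in CD4 1, 2 and 3. CD4 2 lay within the range of the lymphomas, and lymphoma 53 was the lowest of all 9 libraries. The log2 fold change was -0.69 (SE 0.330, edgeR adjusted p 0.107), with a 95% interval from -1.41 to 0.03; the interval therefore runs from 2.65-fold lower to no fall. Leaving out CD4 1 gave -0.28 (edgeR adjusted p 0.577).

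Among CIP/KIP genes, Cdkn1b, which encodes p27KIP1, fell. It had 60.2, 43.3, 66.6, 69.8, 80.8 and 63.0 CPM in lymphomas 34, 53, 56, 70, 72 and 86, against 324, 303 and 404 CPM in CD4 1, 2 and 3. The highest lymphoma, number 72, was far below the lowest CD4 library, number 2. The lymphoma mean was 64.0 ± 12.4 CPM (SD, n = 6) and the CD4 mean 344 ± 53.2 CPM (SD, n = 3). Their log2 difference in the fit was -2.43 (edgeR: SE 0.186, adjusted p 1.62e-06), or 5.37-fold lower with a 95% interval of 4.06 to 7.11. With 474 to 4404 counts per library, Cdkn1b is the most precisely measured of the 7 genes, and its log2 fold change stayed between -2.53 and -2.28 over 18 alternatives. B cell markers fell in the same direction between the groups, and their part in this change was not tested.

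Cdkn1a, which encodes p21CIP1 and is induced by p53, had the widest spread among lymphomas of the 6 tested inhibitors. It stood at 26.1, 21, 5.75, 37.05, 39.4 and 13.6 CPM in lymphomas 34, 53, 56, 70, 72 and 86, and at 3.34, 11.3 and 16.9 CPM in CD4 1, 2 and 3. Lymphomas 34, 53, 70 and 72 lay above every CD4 library, while 56 and 86 lay within the CD4 range. The log2 fold change was 1.18 (SE 0.618, edgeR adjusted p 0.142), with a 95% interval from -0.18 to 2.54. The interval therefore runs from a fall of 1.13-fold to a rise of 5.83-fold. The call turned on lymphoma 56: without it the log2 fold change was 1.42 (edgeR adjusted p 0.0455).

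Cdkn1c, which encodes p57KIP2 and is an imprinted gene, was low in both groups. Its levels were 5.16, 3.20, 3.565, 1.84, 5.105 and 1.73 CPM in lymphomas 34, 53, 56, 70, 72 and 86, from 24 to 80 counts, and 0.859, 0 and 0.734 CPM in CD4 1, 2 and 3, from 9, 0 and 8 counts. The groups did not overlap, and lymphomas 70 and 86 were the lowest of the lymphomas. The log2 fold change was 2.64 (SE 0.850, edgeR adjusted p 0.0235), or 6.23-fold with a wide 95% interval of 1.72 to 22.5. Without CD4 3 the edgeR adjusted p was 0.0515, and with lymphomas 34, 70 and 72 averaged into 1 library it was 0.0540. The labels do not link these lymphomas, and both fits have fewer libraries. Of 9 imprinted-cluster neighbours in the table, 6 were tested, 3 were higher and 1 lower. Over all tested genes, 24.7% were higher and 21.9% lower. Kcnq1ot1, the long noncoding RNA that silences Cdkn1c on the paternal allele, rose by 1.20 on the log2 scale (SE 0.312, edgeR adjusted p 0.00798), with means of 1636 ± 528 CPM in lymphoma (SD, n = 6) and 710 ± 149 CPM in CD4 (SD, n = 3), and with lymphoma 53 at 679 CPM inside the CD4 range. Tspan32 fell by 1.17 (SE 0.157, edgeR adjusted p 9.59e-05).

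**Figure D2:**
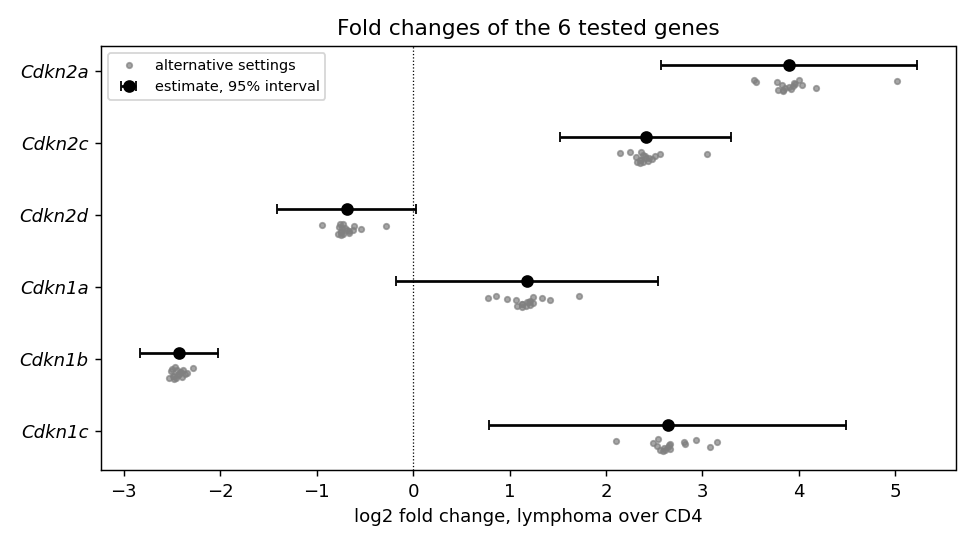
Log2 fold change (lymphoma over CD4) of the 6 tested genes. Black points and bars are the edgeR estimate and its 95% interval, and grey points are the alternative settings. The intervals of Cdkn2d and Cdkn1a cross 0, and those of Cdkn2a, Cdkn2c, Cdkn1b and Cdkn1c do not.

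The makeup of CDK inhibitor counts differed between the groups. In CD4 1, 2 and 3, INK4 genes held 18.6, 9.34 and 10.1% of the counts of the 7 genes, and in lymphomas 34, 53, 56, 70, 72 and 86 they held 40.9, 43.0, 48.0, 40.7, 36.3 and 42.7%. Exact Clopper-Pearson 95% intervals ran at their widest from 40.3 to 45.8% (lymphoma 53) and cover counting error only. The share falls as the count of Cdkn1b rises. Cdkn1b alone held 80.3 to 87.4% in CD4 and 36.6 to 46.1% in lymphoma. The summed level of the 7 genes was 118 to 197 CPM in lymphoma and 347 to 469 CPM in CD4. This sum was a description of chosen genes and was not tested.

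**Figure D3:**
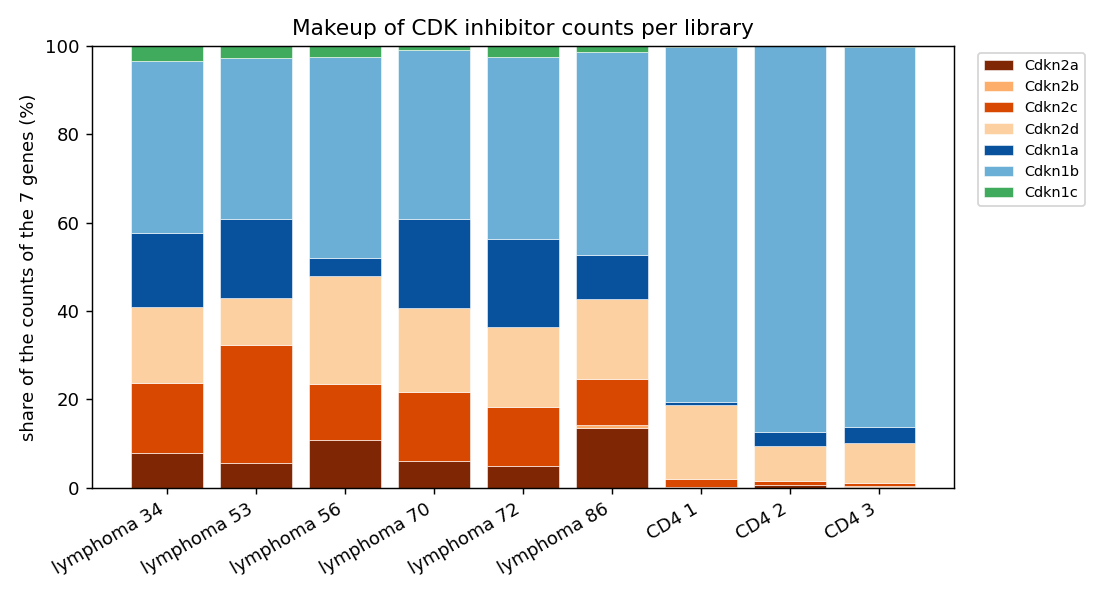
Share of each gene in the summed counts of the 7 genes, in percent, per library. Cdkn1b fills 80.3 to 87.4% of the CD4 bars, while in the lymphoma bars INK4 genes take 36.3 to 48.0%.

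Levels of different genes were ordered as CPM per kilobase of annotated exon, although counts of 3′ ends need not grow with length. In CD4 the order was Cdkn1b (75.5 ± 11.7 CPM per kilobase, SD, n = 3), Cdkn2d (29.1 ± 12.8), Cdkn1a (2.96 ± 1.92), Cdkn2c (1.66 ± 1.005), Cdkn2a (0.725 ± 0.702), Cdkn2b (0.474 ± 0.496) and Cdkn1c (0.260 ± 0.228). Here Cdkn1b and Cdkn2d were each apart from the next gene in every library, and the 5 lower genes overlapped with their neighbours. Plain CPM gave the same order. In lymphoma the order per kilobase was Cdkn2d (18.0 ± 5.72, SD, n = 6), Cdkn1b (14.1 ± 2.72), Cdkn2a (10.5 ± 3.64), Cdkn2c (8.89 ± 2.43), Cdkn1a (6.70 ± 3.70), Cdkn1c (1.68 ± 0.737) and Cdkn2b (0.143 ± 0.263). The ranges of neighbours overlapped in this order except between Cdkn1c and Cdkn2b. In plain CPM Cdkn1b led in lymphoma and Cdkn2a was the fifth, so this order depends on the scale.

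The inhibitors did not follow 1 order among the lymphomas. Lymphomas 86 and 56 were the highest for Cdkn2a and the lowest for Cdkn2c, and lymphoma 53 was the lowest for Cdkn2a and the highest for Cdkn2c. Lymphoma 53 was also the lowest for Cdkn2d and Cdkn1b, and lymphoma 56 the highest for Cdkn2d and the lowest for Cdkn1a. For the tested inhibitors, the SD of log2 CPM over the 6 lymphomas was 1.03 for Cdkn1a, 0.65 for Cdkn1c, 0.57 for Cdkn2d, 0.51 for Cdkn2a, 0.43 for Cdkn2c and 0.30 for Cdkn1b. That of Cdkn1a exceeded the SD of 82.4% of all tested genes and that of Cdkn1b exceeded only 27.7%.

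**Figure D4:**
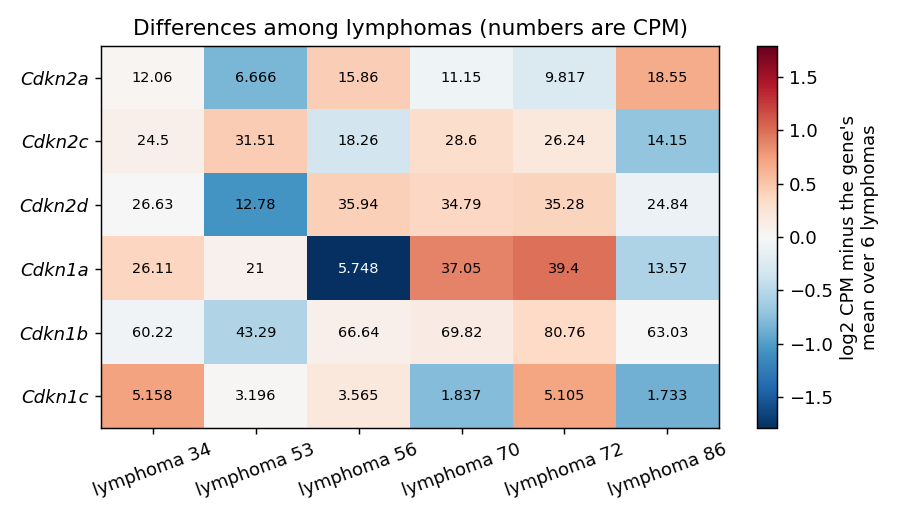
Level of each tested gene in each lymphoma as log2 CPM minus the gene's mean over the 6 lymphomas (colour), with the CPM printed in the cell. Cdkn1a spans the widest range, from 5.75 CPM in lymphoma 56 to 39.4 CPM in lymphoma 72.

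As a description, the genes most like each inhibitor over the 6 lymphomas were sought among 9353 genes with an average log2 CPM of at least 3. With so many genes and 6 libraries an r near 1 arises for each, so these are names and not findings. Cdkn2a was most like Tlr1 (r = 0.995), Slc25a3 (0.994) and Nop58 (0.994), a nucleolar protein, and most opposed to Rhoh (-0.999), though Tlr1 averaged only 0.558 CPM in lymphoma. Cdkn2c was most like Plcxd2, Pdp2 and Peli1 (0.991 to 0.996) and most opposed to Wdr75 (-0.991). Cdkn2d was most like Adcy7, Ctdspl2 and Myl10 (0.993 to 0.997) and most opposed to Pld4 (-0.992). Cdkn1a was most like Ifnar1, Plekhb2 and Fgd2 (0.979 to 0.988) and most opposed to Eif4e (-0.992), the cap-binding protein. Cdkn1b was most like Dnmt3a (0.995), a DNA methyltransferase, Nol4l and Frmd4a, and most opposed to Cnot1 (-0.997). Cdkn1c was most like Polr3gl, Sema4a and Mtmr14 (0.955 to 0.973) and most opposed to Sbno1 (-0.986).

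The targets of the inhibitors were then described. Of 5 D cyclins and their kinases, Cdk6 and Cdk4 rose and Ccnd3 fell, beside 24.7% higher and 21.9% lower over all tested genes. Cdk6 averaged 1468 ± 566 CPM over the lymphomas (SD, n = 6) and 86.1 ± 5.22 CPM over CD4 (SD, n = 3). It rose by 4.09 on the log2 scale (edgeR: SE 0.441, adjusted p 2.69e-05), and Cdk4 rose by 2.35 (SE 0.227, edgeR adjusted p 8.92e-06). Ccnd3 fell by 1.11 (SE 0.157, edgeR adjusted p 0.000148). Ccnd2 changed by -0.56 (edgeR adjusted p 0.0507), with every lymphoma below every CD4 library. It passed in 9 of 18 alternatives. Among these were DESeq2 (-0.62, adjusted p 0.0239) and limma voom (-0.60, adjusted p 0.0397). Others were the fits without lymphoma 72 (-0.65, edgeR adjusted p 0.0307) or without lymphoma 53 (-0.45, edgeR adjusted p 0.0227). Ccnd1 was at 0.800 to 3.06 CPM in 5 lymphomas, 114 CPM in lymphoma 53 and 27.6 to 47.7 CPM in CD4. Its log2 fold change was -0.95 (edgeR adjusted p 0.642), -4.19 without lymphoma 53 and -3.50 with limma voom (adjusted p 0.0029). In both of these alternatives 3 of the 5 genes were lower.

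All 5 tested E and A cyclin and kinase genes, partners that CIP/KIP proteins inhibit, rose, with a median log2 fold change of 2.73 against 0.04 over all tested genes. Ccna2 rose most, by 4.16 (SE 0.296, edgeR adjusted p 9.78e-07), and then Cdk1 by 3.60, Ccne1 by 2.73, Ccne2 by 2.31 and Cdk2 by 1.57. Without CD4 1 the value for Cdk1 was 4.19. Ccna1 had 0 counts in all libraries. Of 13 RB pocket and E2F genes, 9 rose and 1 fell, with a median of 1.63. Over all tested genes, 24.7% were higher and 21.9% lower. E2f1 rose most, by 3.42 (SE 0.237, edgeR adjusted p 7.59e-07), and the pocket protein Rbl2, which holds E2F targets down in resting cells, fell by 1.23 (SE 0.223, edgeR adjusted p 0.000857). All 30 listed proliferation genes were higher as well, with summed levels of 5596 to 7332 CPM in lymphoma and 693 to 870 CPM in CD4.

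Of 13 genes for ubiquitin ligase parts that act on p27 and p21, 9 rose and 0 fell (median 1.06). Over all tested genes, 24.7% were higher and 21.9% lower. Cks1b, the adaptor that helps SKP2 bind p27, rose most, by 4.10 (SE 0.364, edgeR adjusted p 4.98e-06); its mean was 229 ± 41.8 CPM in the lymphomas (SD, n = 6) and 13.3 ± 7.69 CPM in the CD4 libraries (SD, n = 3). These are RNA levels, and p27 protein was not measured.

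Among 13 tested transcription regulators of CIP/KIP genes, 6 fell and 1 rose (median -1.18), beside 24.7% higher and 21.9% lower over all tested genes. Those that fell were Myc, Klf6, Klf2, Foxo1, Foxo4 and Smad4. FOXO factors are known activators of Cdkn1b, and Foxo3 did not pass (-0.46, edgeR adjusted p 0.0505). The part of any of these regulators in the CIP/KIP levels was not tested. Myc had the largest fall, -7.18 on the log2 scale (edgeR: SE 0.658, adjusted p 6.26e-06). Its mean was 0.157 ± 0.155 CPM over the lymphomas (SD, n = 6) beside 23.7 ± 2.49 CPM over CD4 (SD, n = 3). Myc passed the filter through CD4. With 0 to 0.361 CPM in lymphoma, the size of its fall rests on few lymphoma reads. Gfi1, a repressor of Cdkn1a, rose by 4.36 (SE 0.797, edgeR adjusted p 0.00155) and ranged from 48.2 CPM in lymphoma 53 to 662 CPM in lymphoma 72. Without lymphoma 53 the number that rose was 2. Men1 was left out because its symbol stands on 2 rows, of which 1 has 0 counts in all libraries.

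In the ARF and p53 arm, 1 of 7 genes rose and 2 fell, beside 24.7% higher and 21.9% lower over all tested genes. Nothing is read from this count. Npm1, a nucleolar protein that binds ARF, rose by 2.39 (SE 0.254, edgeR adjusted p 1.82e-05). Dmtf1, an activator of the ARF promoter, fell by 1.57 (SE 0.246, edgeR adjusted p 0.000297), and Mdm4, an inhibitor of p53, fell by 0.92 (SE 0.166, edgeR adjusted p 0.000783). Trp53 averaged 61.3 ± 9.53 CPM over the lymphomas (SD, n = 6) and 52.3 ± 8.39 CPM over CD4 (SD, n = 3). The Mdm2 means were 82.8 ± 20.5 and 94.5 ± 8.51 CPM. Neither gene passed, with log2 fold changes of 0.23 and -0.19 (edgeR adjusted p 0.327 and 0.493). Huwe1 at -0.34 and Cdkn2aip at 0.16 did not pass either (edgeR adjusted p 0.0883 and 0.534). Of 22 tested p53 targets other than Cdkn1a, 5 rose, 5 fell and 12 did not pass, with a median of -0.09, which is near the shares over all tested genes (24.7% higher and 21.9% lower). Perp, a desmosomal and apoptosis protein, had 1 count or none in each CD4 library and passed the filter through the lymphomas. Set against 3 counts per CD4 library, its lymphoma mean was at least 50.8-fold higher, and its lowest lymphoma at least 9.13-fold higher. Fas, a death receptor, fell by 3.10 (SE 0.460, edgeR adjusted p 0.000204).

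Of 26 tested regulators of the INK4a/ARF locus, most of them Polycomb proteins, 8 rose, 8 fell and 10 did not pass (median -0.08), beside 24.7% higher and 21.9% lower over all tested genes. The number that rose differed in 15 of 18 alternatives and ranged from 5 to 8, with 5 without CD4 2, with limma voom and with lymphomas 34, 70 and 72 averaged. Tbx3, a repressor of the locus, had the highest fold change past the threshold, 5.04 on the log2 scale (SE 1.70, edgeR adjusted p 0.0330), but this call is not firm. It passed the filter through the lymphomas alone, and the groups overlapped: it was at 20.4 and 21.9 CPM in lymphomas 70 and 72, at 0 to 5.03 CPM in the other 4 and at 0 to 0.642 CPM in CD4. Its call was lost without the filter (edgeR adjusted p 0.0915), with limma voom (adjusted p 0.329), with lymphomas 34, 70 and 72 averaged (edgeR adjusted p 0.0585) and without CD4 1 or CD4 2 (edgeR adjusted p 0.106 and 0.101). Without CD4 3 its log2 fold change was 7.17. Id1 had the largest fall and fell by 3.26 (SE 0.803, edgeR adjusted p 0.00571). Its level was 0 to 1.31 CPM in lymphoma and 3.24 to 9.36 CPM in CD4, and it passed the filter through CD4. Ezh2, which with its partners silences Cdkn2a in many cell types, rose by 2.08 (SE 0.144, edgeR adjusted p 7.59e-07) beside the rise of Cdkn2a, and Cbx7, a Polycomb reader at the locus, fell by 1.67 (SE 0.228, edgeR adjusted p 0.000115); these last 2 were named after their values were seen.

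Of 6 other negative regulators of CDKs, 2 were higher and 1 lower, beside 24.7% higher and 21.9% lower over all tested genes, so nothing is read from the count. Wee1, the kinase that holds CDK1 inactive, rose by 3.63 (SE 0.587, edgeR adjusted p 0.000376). Its level was 4.78 to 9.35 CPM in lymphoma and 0.12 to 0.826 CPM in CD4. Wee1 passed the filter through the lymphomas, and the size of its rise rests on few CD4 reads. Cdkn3, a phosphatase that acts on CDKs and belongs to neither family, rose by 1.72 (SE 0.396, edgeR adjusted p 0.00383). Gadd45b fell by 2.55 (SE 0.659, edgeR adjusted p 0.00752), and by 3.17 without lymphoma 53. Gadd45g passed in 7 of 18 alternatives, among them limma voom (-1.29, adjusted p 0.0266) and the fit without lymphoma 70 (-1.42, edgeR adjusted p 0.0211). With all libraries, Gadd45a, Gadd45g and Pkmyt1 had log2 fold changes of -0.79, -1.15 and 0.28 (edgeR adjusted p 0.197, 0.0608 and 0.824).

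**Figure D5:**
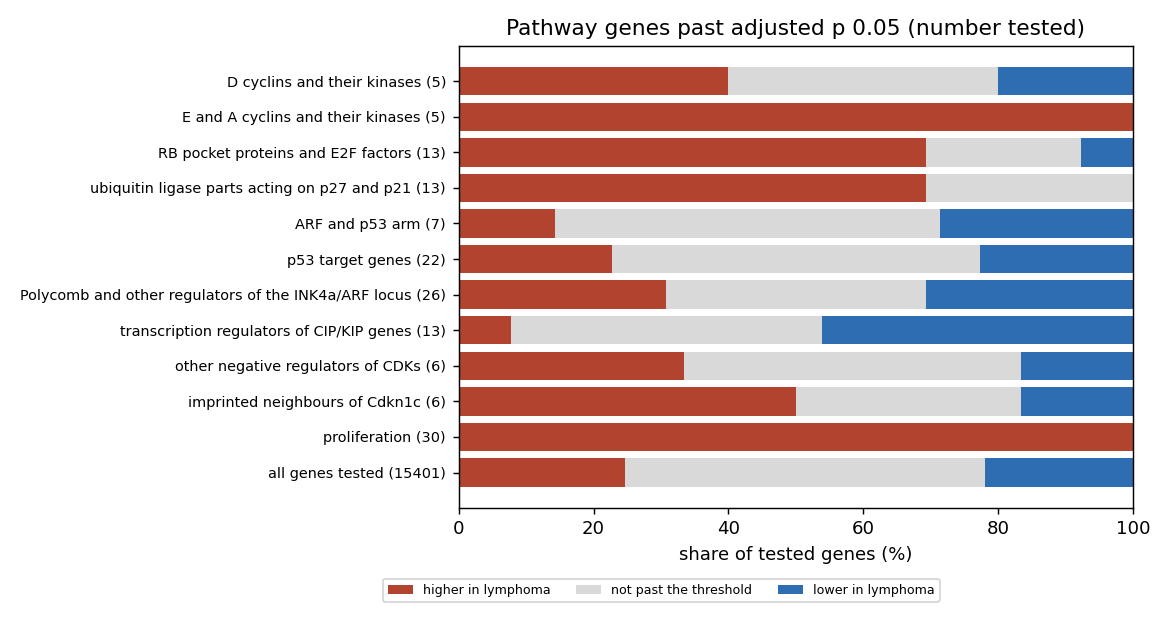
Share of the tested genes of each list that were higher, not past the threshold, or lower in lymphoma (edgeR adjusted p under 0.05), in percent, with the number tested in brackets. E and A cyclins and proliferation genes were higher throughout, while 24.7% of all tested genes were higher and 21.9% lower.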

How the data were processed

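RNA 3′ ends were sequenced in 6 lymphoma and 3 CD4 samples. The authors deposited raw read counts per Ensembl gene, per the file headers; the submitters' processing notes name FastQC, HISAT2, SAMtools, HTSeq and mm10/GRCm38, with no versions. The annotation release and strand setting are not given in the sources used here. The 5 closing rows for reads in no gene (50.9 to 72.2% of a library) were kept out. Every column matched a sample (0 did not).

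The test was edgeR's quasi-likelihood fit (version 4.0.16, R 4.3.3; filterByExpr with minimum count 10, TMM, robust, no covariate, all 9 libraries), with Benjamini-Hochberg adjustment over 15401 genes and a threshold of 0.05. The SE is the absolute log2 fold change over the square root of F, and 95% intervals use the test's t distribution. CPM uses TMM-scaled library sizes, and log2 CPM a prior count of 2. Alternatives used other scalings, filters, DESeq2 1.42.0, limma 3.58.1 (voom) and left-out libraries. Another averaged lymphomas 34, 70 and 72 into 1 library. The labels do not link these lymphomas, and that fit has fewer libraries. Intervals and the floor of 3 counts cover counting error only. On simulated data of 14909 genes for this comparison, 56.8% of 4-fold and 13.4% of 2-fold changes were recovered. In the simulation only 95 genes were changed 4-fold and 97 changed 2-fold, while 46.6% of genes were called in the real data. These rates therefore do not give the recovery in the real comparison. Named genes are the 7 inhibitors, the largest rise and fall past the threshold in each pathway list, all genes of lists of at most 7, and the 3 most alike genes and the most opposed gene per inhibitor. The genes and lists were chosen with earlier results of these data known, and no set test was run.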

Additional observations from a re-analysis of the deposited data

Results flagged for a closer look

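Over 50 measures in the 6 lymphomas, 7 had a library whose gap to its nearest neighbour was large against the whole range (Dixon's test at 95%), where chance gives 2.5, about 1 in 20. Of the 7 inhibitors this held for Cdkn2b only, at 0.939 CPM in lymphoma 86 against at most 0.129 CPM in the other lymphomas. Lymphoma 53 stood apart in Ccnd1 (114 CPM, next 3.06), in Ccne2 (179 CPM, next 91.7), in counts in genes (11170704, next 14403821), in summed T cell markers (3710 CPM, next 2537) and in summed stromal and thymic epithelial markers (577 CPM, next 214). Lymphoma 86 stood apart in summed erythroid markers (1084 CPM, next 412). The calls of Cdkn2a, Cdkn2c, Cdkn1b and Cdkn1c held without either library.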

How the results depend on the processing

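No paired analysis was possible because lymphoma and CD4 samples share no replicate number. The 18 alternative fits gave 106 fold changes for the 6 tested inhibitors. All 106 kept their direction, and 103 kept their side of the threshold. Cdkn1a had a log2 fold change of 1.42 (adjusted p 0.0455) without lymphoma 56 and 0.78 to 1.72 over fits that left out 1 library. For Cdkn1c this range was 2.10 to 3.15, with 2.93 (adjusted p 0.0515) without CD4 3, and the value was 2.54 (adjusted p 0.0540) with lymphomas 34, 70 and 72 averaged; adjusted p over its alternatives ran from 0.00140 to 0.0540. The number of inhibitors called, 4, was 3 to 5 when 1 library was left out. It was 2 under a filter of 10 counts in all libraries, which left 4 of them to test. Cdkn2b gave no value in most fits, being too low. Among other named genes, Pkmyt1 turned to -0.28 without CD4 2 and ranged up to 1.70 when 1 library was left out; the cause was not tested. The D cyclin list had 1 gene lower, and 2 to 3 in 9 of 18 alternatives. Upper quartile scaling moved the median log2 fold change of all genes from 0.04 to -0.06, and Ccnd2, Huwe1 and Gadd45g passed under it (-0.66, -0.44 and -1.24); no inhibitor changed its call. With Cdkn2a, Cdkn2b and Cdkn1c left out, the INK4 share was 33.7 to 42.8% in lymphoma and 8.70 to 18.6% in CD4. Depth limits Cdkn2a, Cdkn2b and Cdkn1c, at 15 counts or fewer per CD4 library.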

Other observations

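Lymphoma 53 differed from the other lymphomas in several genes around the inhibitors. It had the lowest Cdk6 (453 CPM, others 1261 to 2065) and Cdk1 (82.7 CPM, others 181 to 291), and the highest Cdk4 (291 CPM, others 159 to 222) and Bax (54.9 CPM, others 12.6 to 19.7), a p53 target that promotes cell death. Its Cd8a level was 29.4 CPM, against at most 1.53 CPM in the other lymphomas. These values were picked after they had been seen.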
